A study of Homo sapiens with 4 samples.

Results

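The genes described here belong to the BCL2 family, including PMAIP1, the gene of NOXA, measured in HCT116 cells after RNA interference against CDK8. HCT116 is an established human colon cancer line, and CDK8 is the kinase of the Mediator complex, which links transcription factors to RNA polymerase II. One group was transfected with CDK8 siRNA and the other with control siRNA, each at 50 nM for 48 h, and no other agent or allele is labelled. Each group held 2 arrays of total RNA, labelled as biological replicates without saying whether they were separate cultures, so errors and p-values cover only the spread of these arrays, which may be technical. With 1 CDK8 siRNA group, loss of CDK8 and any further effect of that siRNA cannot be told apart. A member was matched by its symbol to a transcript cluster, the probe set that stands for a gene on this array, and the brightest cluster was taken where there were several. Of 10 listed members 9 had a cluster with that symbol alone, out of 22411 such genes in all. BBC3, the gene of the BH3-only protein PUMA, shares its cluster with microRNA genes and has no value here.

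The BCL2 family controls the permeability of the outer mitochondrial membrane. BAX and BAK1 encode proteins that form pores in that membrane and release cytochrome c, BCL2L1 (BCL-XL), MCL1 and BCL2A1 encode proteins that restrain them, and the BH3-only proteins NOXA, PUMA, BIM (BCL2L11), BID and BIK bind the restraining proteins or act on the pore formers. NOXA binds MCL1 preferentially. In colon epithelium and its tumours the balance among these proteins sets how readily stressed cells die.

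The members were picked with their differences on these arrays already known, so the differences below are descriptions. The BAX interval and the count of limma calls given for the members are not read as tests. The log2 signals are those deposited after RMA, a method that corrects background, equalises the arrays and summarises the probes of a gene. Differences are the CDK8 siRNA mean minus that of the controls, ± the limma standard error, with n = 2 per group.

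The upstream sequences of PMAIP1, with the largest difference among the members, and of BAX, with the smallest, are shown first. RefSeq (GRCh38.p14) gave the 250 bases before the start of PMAIP1 on the plus strand, chr18:59899746-59899995, and of BAX on the plus strand, chr19:48954625-48954874. Capitals mark the CRE core TGACGT in PMAIP1, read there on the opposite strand, and the E-box CACGTG in BAX.
PMAIP1: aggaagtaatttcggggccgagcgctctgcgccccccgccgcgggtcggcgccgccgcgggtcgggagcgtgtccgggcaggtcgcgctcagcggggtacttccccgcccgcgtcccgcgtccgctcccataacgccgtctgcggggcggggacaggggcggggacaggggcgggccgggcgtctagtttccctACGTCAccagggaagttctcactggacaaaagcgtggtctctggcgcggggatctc
BAX: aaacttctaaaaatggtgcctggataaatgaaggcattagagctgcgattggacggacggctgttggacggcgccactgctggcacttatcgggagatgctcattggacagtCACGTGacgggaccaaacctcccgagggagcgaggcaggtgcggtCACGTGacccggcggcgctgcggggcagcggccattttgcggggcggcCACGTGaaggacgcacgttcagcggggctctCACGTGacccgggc
The CRE core is bound by factors of the ATF and CREB families, and the E-box by basic helix-loop-helix factors such as MYC and USF1. PMAIP1 held 1 CRE core, beginning 56 bases before the start, and BAX held 0. BAX held 4 E-boxes, beginning 138, 93, 45 and 14 bases before the start, and PMAIP1 held 0. Among 35114 such windows of all genes 7.10% held a CRE core and 6.35% an E-box on either strand.

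RefSeq windows were present for 8 of the 10 members, with 5 for BID and 2 for BCL2L1, 13 in all. No other member window held the CRE core, and E-boxes also stood in the BBC3 window and in 2 of the 5 BID windows. Several BID windows overlap, and those 2 hold the same E-box. The GC box GGGCGG, bound by SP1, occurred 4 times in PMAIP1, 3 times in BCL2L11, 2 times in BAK1 and 1 time in BAX. It stood 1 to 4 times in 4 of the 5 BID windows, partly at the same sites. The BBC3, BCL2L1 and BCL2A1 windows held none, and 42.6% of all windows held at least 1. The GC content of the PMAIP1 window was 72.8% and that of BCL2L11 76.8%, while BCL2A1 had 38.8%, beside a median of 58% over all windows. The TATA box, searched as TATAAA, occurred 2 times in the first BCL2L1 window and 1 time in BCL2A1, and 10.7% of all windows held at least 1. The element of C/EBP and ATF factors, TGATGNAA, occurred 1 time in BCL2A1 and in 3.14% of all windows. The kappaB consensus of NF-κB, GGGRNNYYCC, occurred in no member window, those of BCL2L1 and BCL2A1 included, and in 9.96% of all windows. The AP-1 site TGANTCA occurred 1 time, in BBC3, and in 6.57% of all windows. The p53 half-site RRRCWWGYYY occurred 1 time, in BAK1, and in 5.57% of all windows. The motifs were chosen after the sequences were seen, both strands were searched, and a match describes letters, not a bound site.

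Among the BH3-only genes PMAIP1 stood far above the others in the size of its difference. Its log2 signal was 7.40 and 7.81 in control cells and 13.38 and 13.44 in cells with CDK8 siRNA. Both CDK8 siRNA arrays were high and lay close together, both control arrays were low, and the groups did not overlap. The means were 7.61 ± 0.29 and 13.41 ± 0.04 (SD, n = 2 per group), a difference of 5.81 ± 0.14 or 55.9-fold. Between single arrays of the 2 groups the difference ranged from 5.57 to 6.04, and of 13956 tested genes 2 had a larger one in size. Both control arrays were well over the level of 4.28 that a gene's 4-array mean had to reach to be tested, the median over all transcript clusters.

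BID encodes a protein that caspase-8 cleaves into an activator of BAX and BAK. Its log2 signal was 7.15 and 6.95 in control cells and 6.44 and 6.31 with CDK8 siRNA. Both CDK8 siRNA arrays lay under both control arrays, and the difference was -0.68 ± 0.10 or 1.60-fold lower. BCL2L11, the gene of BIM, had log2 signals of 7.67 and 7.44 in control cells and 7.27 and 7.24 with CDK8 siRNA. The groups did not overlap, but the closest arrays were 0.17 apart and the difference was -0.30 ± 0.10. Its dimmer second transcript cluster, which the choice of the brightest left aside, read 5.45 and 5.68 in control cells and 5.26 and 5.01 with CDK8 siRNA. That cluster was lower as well, by a difference of -0.43.

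BIK encodes a BH3-only protein of the endoplasmic reticulum. It read 6.09 and 6.11 in control cells and 6.41 and 6.51 with CDK8 siRNA (log2 signal). Both CDK8 siRNA arrays were the higher, by 0.36 ± 0.07. The 4 measured BH3-only members therefore included 2 that were higher and 2 that were lower with CDK8 siRNA.

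**Figure D1:**
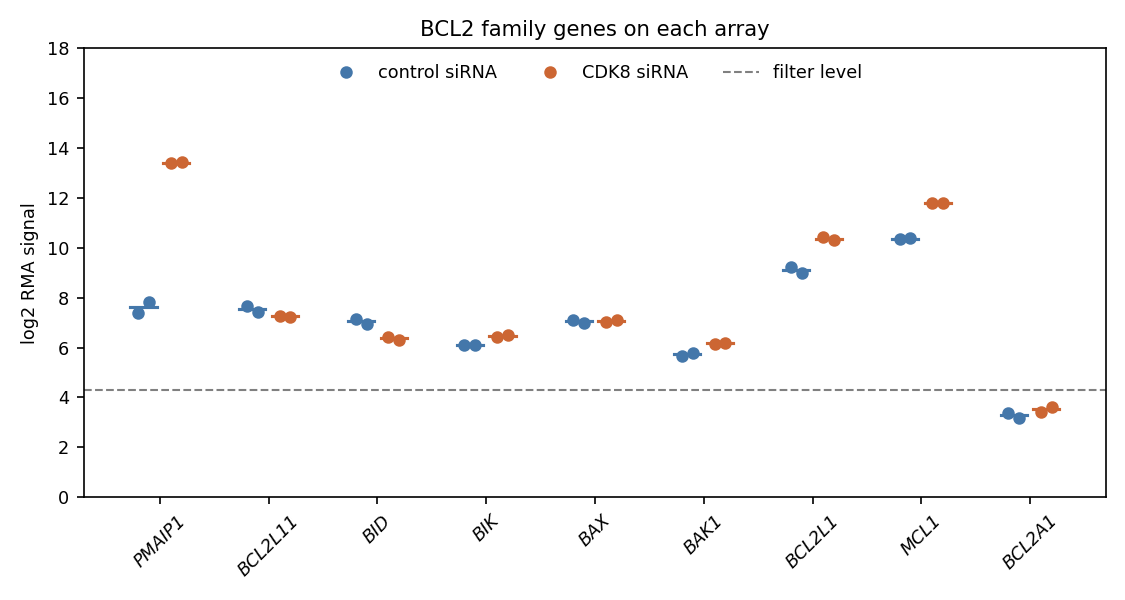
Log2 RMA signal (vertical axis) of the 9 measured members on each of the 4 arrays; points are single arrays, short bars the means of the 2 arrays of a group and the dashed line the filter level of 4.28. PMAIP1 goes from 7.61 to 13.41 between the group means, MCL1 and BCL2L1 are higher with CDK8 siRNA, the BAX points overlap and BCL2A1 lies under the line.

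Of the pore-forming genes BAX differed by less than the spread of its arrays. Its log2 signal was 7.12 and 6.98 in control cells and 7.03 and 7.10 with CDK8 siRNA. The groups overlapped, and the difference of 0.02 ± 0.08 had a 95% interval of -0.19 to 0.22. BAK1 read 5.68 and 5.80 in control cells and 6.16 and 6.19 with CDK8 siRNA. Its groups did not overlap, and it was 1.35-fold higher (0.44 ± 0.08).

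The restraining genes MCL1 and BCL2L1 were both higher with CDK8 siRNA. MCL1, whose short-lived protein is the main partner of NOXA, read 10.33 and 10.37 in control cells and 11.80 and 11.79 with CDK8 siRNA (log2 signal). The arrays of each group lay within 0.04 of each other, and MCL1 was 2.72-fold higher (1.45 ± 0.07). BCL2L1 read 9.21 and 9.00 in control cells and 10.42 and 10.30 with CDK8 siRNA. All CDK8 siRNA arrays were above all control arrays, and the gene was 2.39-fold higher (1.26 ± 0.10). The probe set sums over transcripts, so the long form BCL-XL and the pro-apoptotic short form BCL-XS of BCL2L1, and the long and short forms of MCL1, were not told apart.

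BCL2A1, a restraining gene best known from blood cells, had signals of 3.38 and 3.19 in control cells and 3.42 and 3.63 with CDK8 siRNA. All 4 were below 4.28, a range in which RMA compresses differences. Its arrays were only just apart, by 0.04 at the closest, with a difference of 0.24.

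In order of the signed difference the members ran PMAIP1, MCL1, BCL2L1, BAK1, BIK, BCL2A1, BAX, BCL2L11 and BID. Their spread is given by the differences between single arrays of the groups. These ran from 1.42 to 1.47 for MCL1 and from 1.09 to 1.42 for BCL2L1, which met at one end, and PMAIP1 lay above both from 5.57. BAK1 (0.36 to 0.51), BIK (0.30 to 0.42) and BCL2A1 (0.04 to 0.44) overlapped, as did BCL2A1 and BAX (-0.09 to 0.12). BCL2L11 (-0.43 to -0.17) lay apart from BAX, and BID (-0.84 to -0.51) from BCL2L11.

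Of the 9 members 8 reached the filter level, each in both group means, and BCL2A1 did not. Across all tested genes 74.7% had groups that did not overlap, and this held for 7 of the 8 tested members. At an adjusted p under 0.05 limma called 5 of the 8 higher and 2 lower, with 49.5% of all tested genes called. The choice of members used the same contrast, so nothing is read from these counts or from the median and ranks that follow. The median difference of the 8 was 0.40, beside 0.005 over all tested genes. In size the difference of MCL1 exceeded 95.7% of tested genes, that of BCL2L1 93.6% and that of BID 78.8%, while that of BAX exceeded 3.33%.

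**Figure D2:**
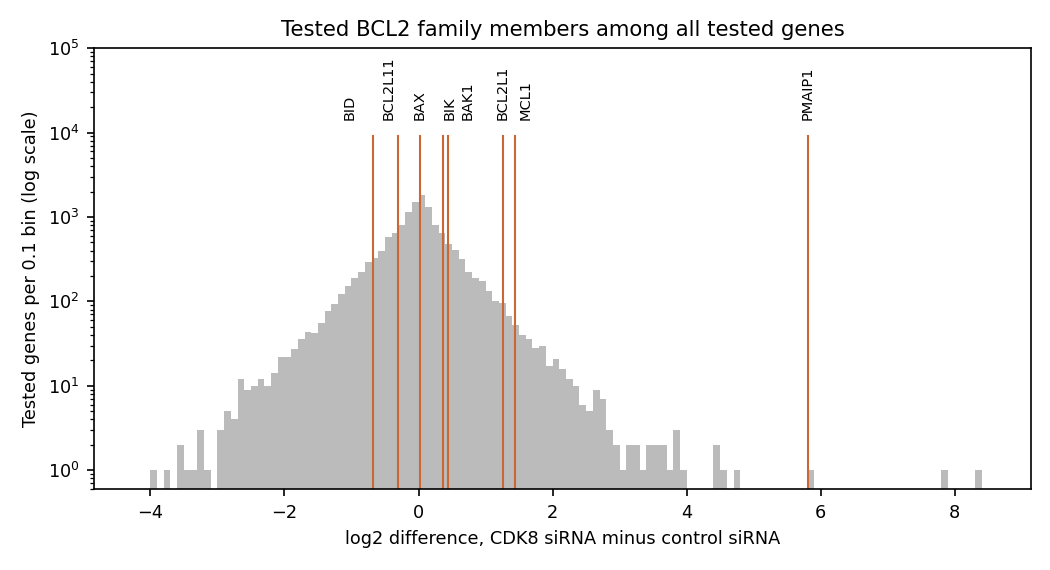
Histogram of the log2 difference, CDK8 siRNA minus control siRNA, of all 13956 tested genes (horizontal axis; bins of 0.1, vertical axis on a log scale), with lines at the 8 tested members. Most members lie within the body of the distribution, and PMAIP1 at 5.81 lies in its sparse upper tail.

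The tested genes with the 4-array pattern most like that of PMAIP1 were SDC4, GALNT5, CPA4, SLC2A3 and TNFRSF9. Likeness was the Euclidean distance over the 4 arrays between log2 signals, each gene centred on its own mean, and these distances ran from 1.16 to 1.88. The proteoglycan gene SDC4 read 9.80 and 9.58 in control cells and 14.46 and 14.39 with CDK8 siRNA. The differences of the 5 genes lay between 3.99 and 4.74, all under that of PMAIP1. TNFRSF9 read 3.94 and 3.72 in control cells, under the filter level of 4.28, and was tested only through its CDK8 siRNA arrays at 7.71 and 7.92. The distance mostly ranks genes by the size of their difference.

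The targeted gene CDK8 had log2 signals of 9.99 and 10.04 in control cells and 7.25 and 7.45 in cells with its siRNA (-2.67 ± 0.09, adjusted p = 4.43e-05). Array medians over all transcript clusters were 4.24 for both controls and 4.32 and 4.31 with CDK8 siRNA. Of 8 colon epithelial markers the 5 general epithelial ones had signal. Their differences were 2.83 for CDH1, the gene of E-cadherin, 0.65 for EPCAM, 0.43 for KRT19, 0.05 for KRT8 and -0.34 for KRT18. The intestinal markers CDX1, CDX2 and VIL1 lay under the filter level. Of blood cell markers 1 of 7 measured, CD68, reached that level, at 6.73 and 8.09, and PTPRC, carried by all white blood cells, was at 3.45 and 3.53. Over those 7 genes the mean signal was 3.98 to 4.03 on control arrays and 4.20 to 4.30 on CDK8 siRNA arrays. That mean includes CD68, which had by far the largest difference of the 7 (1.36), and the labels name HCT116 cells only. Fibroblast and endothelial markers reached the filter level in 1 of 5 each. In bulk RNA fewer cells of a type and less RNA per cell cannot be told apart.

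The other genes of the BCL2 family moved in both directions. Of 13 such genes 11 were tested, of which 2 rose, 2 fell and 7 did not pass, with a median difference of 0.05 beside 0.005 over all tested genes, of which 23.1% were called higher and 26.4% lower. BCL2, the founding restraining gene, read 5.17 and 5.04 in control cells and 5.13 and 5.29 with CDK8 siRNA. Those groups overlapped, and the difference was 0.11 with a 95% interval of -0.12 to 0.33 (adjusted p = 0.395). BCL2L2 (BCL-W), which shares exons with a readthrough transcript into PABPN1 that its probes may also detect, differed by 0.05 with an interval of -0.16 to 0.26. The pore former BOK differed by 0.02, with an interval of -0.17 to 0.20. The BH3-only genes HRK, BAD and BMF stood at 0.16, 0.09 and -0.09 and did not pass (adjusted p from 0.221 to 0.390).

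The 4 of these other family genes that passed all belong to the atypical relatives, which share less with BCL2 in structure or function. The members had been set apart with their differences known, so nothing is read from this about roles in the whole family. BCL2L12 read 7.44 and 7.32 in control cells and 6.58 and 6.71 with CDK8 siRNA, and fell 1.66-fold (-0.74, adjusted p = 0.00124). BCL2L13, a mitochondrial protein gene, fell 1.60-fold (-0.68, adjusted p = 0.00336). BCL2L15 rose from a control mean of 4.18 to 5.42 (1.25, adjusted p = 5.60e-04). Its control mean was under the filter level, which it passed only through the CDK8 siRNA arrays. BNIP3, a hypoxia-induced gene of mitochondrial autophagy, rose 1.35-fold (0.43, adjusted p = 0.00547), and its paralog BNIP3L at -0.04 did not pass. BCL2L10 and BCL2L14 lay under the filter level. Leaving out control siRNA replicate 1 or 2 ended the call of BCL2L13 (adjusted p = 0.0851 and 0.0715) and that of BNIP3 (0.0648 and 0.0756).

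**Figure D3:**
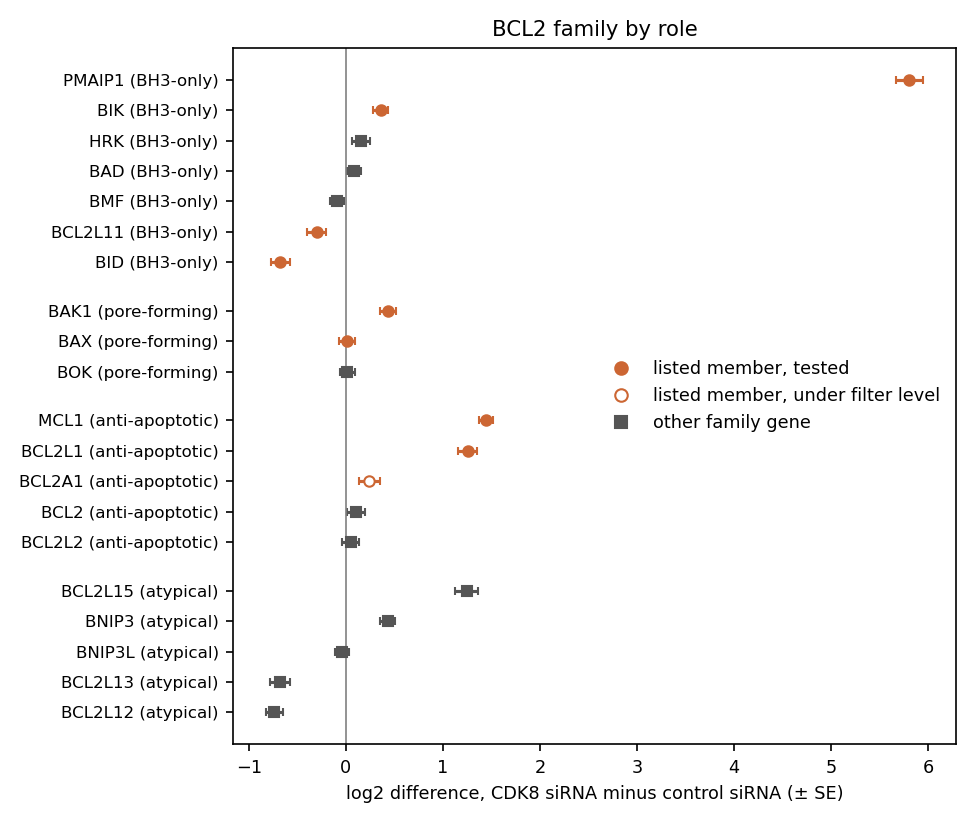
Log2 difference ± standard error (horizontal axis) of the BCL2 family by role; circles are the listed members, the open circle BCL2A1 under the filter level, and squares the other tested family genes. PMAIP1 at 5.81 stands apart, MCL1, BCL2L1 and BCL2L15 lie between 1.25 and 1.45, and the remaining genes lie between -0.74 and 0.44.

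For the steps downstream of the pores, the RNA signals of cytochrome c and of the protein it activates moved in opposite directions. CYCS, the gene of cytochrome c, read 11.02 and 10.97 in control cells and 13.64 and 13.62 with CDK8 siRNA (log2 signal). It rose 6.21-fold (2.64, adjusted p = 3.29e-05). APAF1, which assembles with cytochrome c into the apoptosome, read 8.96 and 9.07 in control cells and 7.37 and 7.66 with CDK8 siRNA. It fell 2.83-fold (-1.50, adjusted p = 2.95e-04), while CASP9, the caspase of the apoptosome, at -0.06 did not pass (adjusted p = 0.547). AIFM1, a flavoprotein of the intermembrane space, fell 1.42-fold (-0.51, adjusted p = 0.00309), and VDAC2, a channel protein of the outer membrane that binds BAK, rose 1.46-fold (0.55, adjusted p = 0.00930). The 10 tested genes of mitochondrial release and the apoptosome gave 3 rises and 2 falls, and 5 missed the threshold (median -0.05). The third that rose, named after its value was seen, was DIABLO (SMAC), which antagonises the inhibitors of apoptosis (0.22, adjusted p = 0.0419). Its call ended with arrays centred (adjusted p = 0.129), in each refit on 3 arrays (0.0797 to 0.137) and with the replicate number as a block (0.0572). The VDAC2 call ended whichever array was left out (0.0635 to 0.116), and the AIFM1 call without control siRNA replicate 1 (0.0515).

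Of the other caspase genes 3 were tested, of which 2 fell, 0 rose and 1 did not pass. CASP6, an effector caspase, read 8.91 and 8.96 in control cells and 7.19 and 7.28 with CDK8 siRNA, and fell 3.25-fold (-1.70, adjusted p = 7.05e-05). CASP2, an initiator caspase, fell 1.72-fold (-0.78, adjusted p = 8.92e-04). CASP8, which cleaves BID, differed by 0.17 with a 95% interval of -0.02 to 0.35 (adjusted p = 0.118). The list held 7 genes, of which CASP10 lay under the filter level and 3 had no transcript cluster of their own symbol here.

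The inhibitors of apoptosis split. BIRC2 (cIAP1), a ubiquitin ligase of TNF receptor signalling, read 9.35 and 9.38 in control cells and 11.06 and 10.92 with CDK8 siRNA, and rose 3.08-fold (1.63, adjusted p = 8.91e-05). BIRC6, a large ubiquitin-conjugating enzyme, rose 1.87-fold (0.91, adjusted p = 9.36e-04). BIRC5 (survivin), which also serves chromosome segregation in mitosis, read 9.95 and 9.93 in control cells and 8.58 and 8.51 with CDK8 siRNA, and fell 2.63-fold (-1.40, adjusted p = 9.69e-05). XIAP, which inhibits caspases directly, differed by 0.08 with an interval of -0.10 to 0.25 (adjusted p = 0.428). Among the 6 tested there were 2 rises and 1 fall, and 3 missed the threshold (median 0.06).

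Genes that control the turnover of the MCL1 and NOXA proteins gave 4 falls and 2 rises among 9 tested, and 3 missed the threshold (median -0.24). USP13, a deubiquitinase of MCL1, read 8.17 and 8.19 in control cells and 7.35 and 7.32 with CDK8 siRNA, and fell 1.80-fold (-0.85, adjusted p = 3.52e-04). BTRC, a ligase subunit for MCL1, fell 1.51-fold (-0.59, adjusted p = 0.00219), and UBE2F, a NEDD8-conjugating enzyme of the ligase for NOXA, fell 1.48-fold (-0.57, adjusted p = 0.00217). MARCHF5, a mitochondrial ubiquitin ligase required for MCL1 turnover, rose 1.44-fold (0.53, adjusted p = 0.00785). The other two that passed, named after their values were seen, were the deubiquitinase gene USP9X (0.48, adjusted p = 0.0174) and the ligase gene HUWE1 (-0.33, adjusted p = 0.0346). The MARCHF5 call ended with the replicate number as a block (adjusted p = 0.0556) and without control siRNA replicate 1 or 2 or CDK8 siRNA replicate 2 (0.0708 to 0.113). The USP9X call ended whichever array was left out (0.0715 to 0.168). The HUWE1 call ended without the filter (0.0582), with the block (0.0682) and without control siRNA replicate 2 or either CDK8 siRNA array (0.140 to 0.193).

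**Figure D4:**
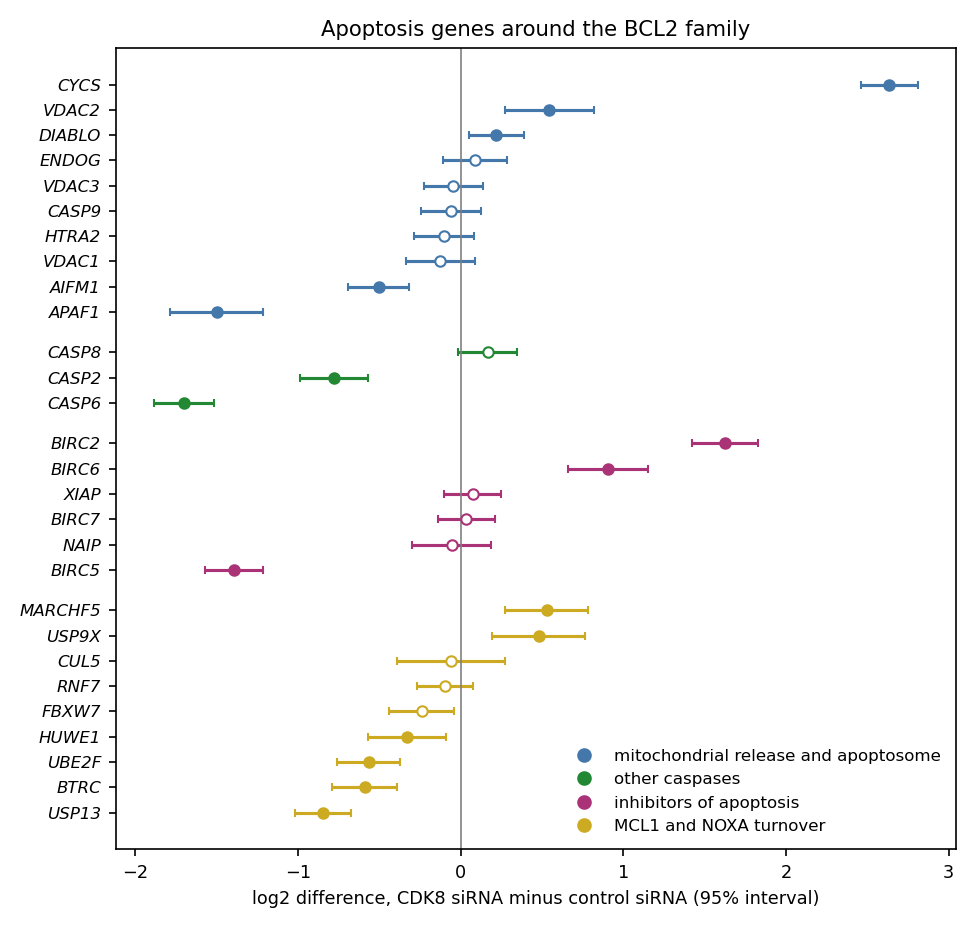
Log2 difference with its 95% interval (horizontal axis) of the 28 tested genes in the lists of mitochondrial release and apoptosome, other caspases, inhibitors of apoptosis and MCL1 and NOXA turnover; filled points had an adjusted p under 0.05. CYCS at 2.64 and BIRC2 at 1.63 are the highest, and CASP6 at -1.70, APAF1 at -1.50 and BIRC5 at -1.40 the lowest.

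Over the 5 lists outside the members, the other family genes included, 9 of 39 tested genes rose, 11 fell and 19 did not pass, with a median difference of -0.05. That is 20 of 39 beside 49.5% of all tested genes. The rises include BCL2L15, which reached the filter level only through its CDK8 siRNA arrays. These lists too were chosen with earlier results of these data known, so nothing is read from the counts. The count of rises fell to 4 without control siRNA replicate 1 or 2 and to 5 without CDK8 siRNA replicate 2.

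Transcription factors known to act on promoters of BCL2 family genes were measured for 15 of 17 listed genes, and 10 rose, 4 fell and 1 did not pass, with a median of 0.62. Of all tested genes 23.1% were called higher and 26.4% lower. This list was chosen with earlier results of these data known, so nothing is read from its counts or its median. Without control siRNA replicate 1 the list gave 7 rises and 0 falls, without control siRNA replicate 2 it gave 7 and 2, and without either CDK8 siRNA array 8 and 2. ATF3, a stress-induced factor, read 6.28 and 5.97 in control cells and 8.79 and 9.05 with CDK8 siRNA. It rose 6.94-fold (2.80, adjusted p = 8.91e-05). The NF-κB subunit genes REL and RELA, whose products act on BCL2L1 and BCL2A1, rose 3.71-fold (1.89, adjusted p = 1.25e-04) and 1.89-fold (0.92, adjusted p = 6.77e-04). STAT3, which acts on MCL1 and BCL2L1, read 9.10 and 9.14 in control cells and 10.64 and 10.57 with CDK8 siRNA, and rose 2.80-fold (1.49, adjusted p = 8.46e-05). The 4 that fell, named after their values were seen, were the hypoxia factor gene HIF1A (-0.54, adjusted p = 0.00229), the p53 relative TP73 (-0.44, 0.00397), IRF3, a factor of antiviral signalling (-0.48, 0.00481), and the cell cycle factor gene E2F1 (-0.47, 0.00616). Without control siRNA replicate 1 their adjusted p-values were 0.0515, 0.0534, 0.0632 and 0.0542. These measurements do not connect any of the factors to a change in a family gene.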

How the data were processed

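Total RNA of HCT116 cells was labelled with biotin by the WT PLUS kit and hybridised to Affymetrix arrays, per the labels' protocols. The authors deposited log2 signals, made by RMA with Affymetrix Expression Console according to the submitters' processing notes, whose settings and versions were not given in the sources used here. Of 70523 rows 67528 were transcript clusters, and 23781 of these carried 1 symbol in the platform annotation, 1543 several and 42204 none. Symbols were updated through RefSeq (23777 matched, 306 changed), and the brightest cluster of each of 22411 genes was used. Genes with a mean of at least 4.28, the median over transcript clusters, were tested (13956). The comparison used lmFit and eBayes of limma 3.58.1 (R 4.3.3) without covariates, p-values adjusted by Benjamini-Hochberg over all tested genes and a threshold of 0.05, and the fit was tested on simulated data. The median standard error was 0.0832, and the number of arrays limits the precision. The members and the lists were chosen with earlier results of these data known. Named were the members, all other family genes, the 5 genes nearest to PMAIP1 in pattern, and CDK8. Of each other list up to 4 genes with the smallest p were named. Exceptions are given as such, and CASP9, CASP10, FBXW7 and the cell type markers were named outside this rule as well. Alternatives were other filters, normalization, variance models, cluster rules and thresholds, the replicate block and leaving out each array. Promoter windows were cut to the 250 bases before the start. Figures were drawn with matplotlib 3.10.9.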

Additional observations from a re-analysis of the deposited data

How the results depend on the processing

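With 1 array left out, the genes called over the whole array ranged from 1377 to 2097 higher and from 1745 to 2414 lower, against 3229 and 3679 with all 4 arrays. The pathway genes outside the members ranged from 4 to 6 higher and from 9 to 10 lower in the same refits, against 9 and 11. Under the other alternatives these 4 counts stayed within 1.5 times. Of the 20 calls in the pathway lists 11 passed under every alternative, 8 were lost under at least 1, all named above, and BCL2L15 passed in all but the filter at the 75th percentile (6.17), under which it was not tested. FBXW7, not called, passed with that filter (adjusted p = 0.0480), with quantile normalization (0.0489) and with arrays centred (0.0227). Among the transcription factors 7 of 14 calls were lost with at least 1 of the arrays left out. PMAIP1 differed by 5.60 to 6.01, MCL1 by 1.37 to 1.47, BCL2L1 by 1.15 to 1.36, BAK1 by 0.36 to 0.50, BIK by 0.29 to 0.41, BID by -0.78 to -0.58 and BCL2L11 by -0.42 to -0.19. BAX ranged from -0.06 to 0.09 and changed sign in 3 of 10 alternatives. The replicate number as a block gave 7 higher and 10 lower pathway genes; deviations of same-numbered arrays correlated at r = 0.121 across genes, and no label says that a number marks a shared culture or day. Signals near or under 4.28, as for BCL2A1 and BCL2L15, compress differences. BCL2L15 was tested in the main fit only through its CDK8 siRNA arrays, so its call is not read as a stable one.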
